A study of Mus musculus with 12 samples.

Results

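Genes that copy DNA and make its building blocks were followed in mouse splenic follicular B cells with and without the transcription factor Bach2, before and after stimulation of the B cell receptor. The set holds 44 genes in 8 roles, chosen by symbol: each gene is represented by the array probe whose RefSeq accession carries that symbol and whose mean over the 12 arrays is the highest. All 44 of 44 were among the 22744 genes tested, and 43 of them read well above background on all 12 arrays; the exception was Orc1. The 4 groups of 3 arrays each held total RNA of follicular B cells from spleens of C57BL/6J mice labelled male: WT cells at 0 h, WT cells after 24 h in culture with 10 µg/mL of an anti-mouse IgM Fab' antibody, and Bach2-/- cells at the same times. Anti-IgM binds the B cell receptor and drives resting B cells towards division. The study asked how Bach2 bears on proliferation driven by the B cell receptor and on inhibitors of the cell cycle kinases. The cells were purified from the spleen and then cultured, so the 24 h groups differ from the 0 h groups in culture as well as in antibody, and those cannot be told apart. No cells cultured without the antibody were analysed here.

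Eukaryotic DNA replication is prepared in the G1 phase, when the origin recognition complex, CDC6 and CDT1 load the ring-shaped MCM helicase onto DNA. In S phase CDC45 and the GINS complex turn the loaded ring into an active helicase, polymerases alpha, delta and epsilon copy the strands, PCNA clamps the polymerases to DNA, and ribonucleotide reductase with the thymidylate enzymes supplies deoxynucleotides. Many of these genes are known targets of E2F transcription factors, and resting B cells keep much of the machinery low until they are stimulated. BACH2 is a repressor that binds DNA with small MAF proteins and is known for holding back plasma cell differentiation.

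Several features of the arrays bear on what follows. The Bach2 probe (the sources do not say where it lies against the deletion) had a mean log2 level of 3.69 ± 0.30 (SD, n = 3) in WT and 1.13 ± 0.19 in Bach2-/- cells at 0 h, and 3.54 ± 0.28 and -0.21 ± 0.56 at 24 h (limma, adjusted p = 0.0024 and 5.53e-05). A log2 level here is the log2 of a probe's signal over the 75th percentile of its array, and triplets of levels run in the order of replicates 1, 2 and 3. Replicate 1 of every group lay on a second slide, and replicates 2 and 3 on the first. The array labelled Bach2-/- 0 h replicate 1 had 0 of 5 Y-linked probes above background, against 3 to 5 on the other 11 arrays. Bach2-/- 24 h replicate 2 was the dimmest array, with a 75th percentile of 87.4 intensity units against 155 to 307 elsewhere, and the most outlier spots. These are called the doubted arrays. The median log2 level of B cell markers (7 of 9 listed genes tested) was 5.79 to 6.67 per array at 0 h and 2.49 to 3.39 at 24 h.

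Promoters of 6 genes are shown first, since most of the set rose in WT cells. RefSeq promoter windows of 300 bases around a gene's start on build GRCm38.p6, most of each lying before the start, were found for 36 of the 44 genes (43 windows). They are printed 5′ to 3′ in the gene's own direction, with the searched letters in capitals. The origin licensing gene Orc1 (chr4:108579204-108579503, strand +) and Cdc6 (chr11:98907901-98908200, strand +) stand for origin licensing, Mcm3 (chr1:20820263-20820562, strand -) and Mcm6 (chr1:128359656-128359955, strand -) stand for the helicase, Tk1 (chr11:117825965-117826264, strand -) had the smallest adjusted p for a response difference with the replicate block, and Rrm2 (chr12:24708004-24708303, strand +) had the highest genotype difference of the set at 24 h, which did not pass the test.
Orc1: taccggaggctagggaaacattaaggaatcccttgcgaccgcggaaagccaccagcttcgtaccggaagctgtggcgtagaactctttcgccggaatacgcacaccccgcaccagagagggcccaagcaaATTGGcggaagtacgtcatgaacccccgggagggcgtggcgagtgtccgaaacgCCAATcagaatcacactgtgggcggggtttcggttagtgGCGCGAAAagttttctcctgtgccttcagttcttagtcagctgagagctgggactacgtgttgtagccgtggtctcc
Cdc6: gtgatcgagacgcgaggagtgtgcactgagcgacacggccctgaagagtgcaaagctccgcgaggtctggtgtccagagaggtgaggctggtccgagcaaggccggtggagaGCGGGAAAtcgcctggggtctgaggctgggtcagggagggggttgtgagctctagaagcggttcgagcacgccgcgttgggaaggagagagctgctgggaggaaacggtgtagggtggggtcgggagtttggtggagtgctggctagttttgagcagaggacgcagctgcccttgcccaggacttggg
Mcm3: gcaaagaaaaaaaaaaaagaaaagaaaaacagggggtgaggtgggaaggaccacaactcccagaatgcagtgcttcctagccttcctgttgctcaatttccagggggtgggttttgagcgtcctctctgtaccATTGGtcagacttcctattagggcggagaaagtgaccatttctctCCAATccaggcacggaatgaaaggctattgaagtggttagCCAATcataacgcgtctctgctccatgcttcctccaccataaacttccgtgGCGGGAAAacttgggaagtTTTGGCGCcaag
Mcm6: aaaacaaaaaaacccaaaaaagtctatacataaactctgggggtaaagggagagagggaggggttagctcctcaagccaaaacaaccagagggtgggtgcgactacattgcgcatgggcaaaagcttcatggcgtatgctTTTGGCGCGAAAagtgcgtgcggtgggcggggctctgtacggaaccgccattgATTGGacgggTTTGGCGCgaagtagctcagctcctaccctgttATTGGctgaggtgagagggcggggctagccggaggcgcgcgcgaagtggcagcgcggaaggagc
Tk1: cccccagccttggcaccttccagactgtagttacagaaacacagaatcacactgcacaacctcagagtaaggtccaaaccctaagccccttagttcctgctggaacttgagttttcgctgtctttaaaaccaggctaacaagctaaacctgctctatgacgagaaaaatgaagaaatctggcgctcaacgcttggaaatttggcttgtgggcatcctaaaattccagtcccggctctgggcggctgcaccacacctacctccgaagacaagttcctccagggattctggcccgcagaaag
Rrm2: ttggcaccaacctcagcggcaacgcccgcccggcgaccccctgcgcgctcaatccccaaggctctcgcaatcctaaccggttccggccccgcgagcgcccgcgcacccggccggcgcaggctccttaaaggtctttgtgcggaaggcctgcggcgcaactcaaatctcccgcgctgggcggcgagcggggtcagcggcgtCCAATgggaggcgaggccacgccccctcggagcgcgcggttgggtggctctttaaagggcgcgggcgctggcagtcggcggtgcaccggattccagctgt

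The capitals mark E2F-type letters (TTTCCCGC, TTTGGCGC, TTTCGCGC or TTTGCCGC), the CCAAT box (CCAAT), and BACH-type letters, a site shared by BACH and small MAF proteins, searched on both strands. In the windows of Mcm5 and Mcm6 pairs of E2F-type matches overlap. E2F-type letters were in 14 of the 43 windows (32.6%), against 2.26% of all 32851 windows in the RefSeq table and 3.09% of the 13383 windows whose GC content lay between the quartiles of the members (51.0 to 65.7% GC). By role they were in 4 of 6 MCM genes with a window, 3 of 5 origin licensing genes and 3 of 6 polymerase and primase genes, and in 0 of 5 nucleotide synthesis genes. CCAAT was in 26 of 43 windows (60.5%) against 37.4% of all. BACH-type letters were in 0 of 43 windows against 0.423% of all. Of the 6 printed windows, those of Orc1, Cdc6, Mcm3 and Mcm6 hold E2F-type letters, the Rrm2 window holds CCAAT alone, and the Tk1 window holds none of the letters searched. A match describes these letters in these windows and shows no binding.

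**Figure D1:**
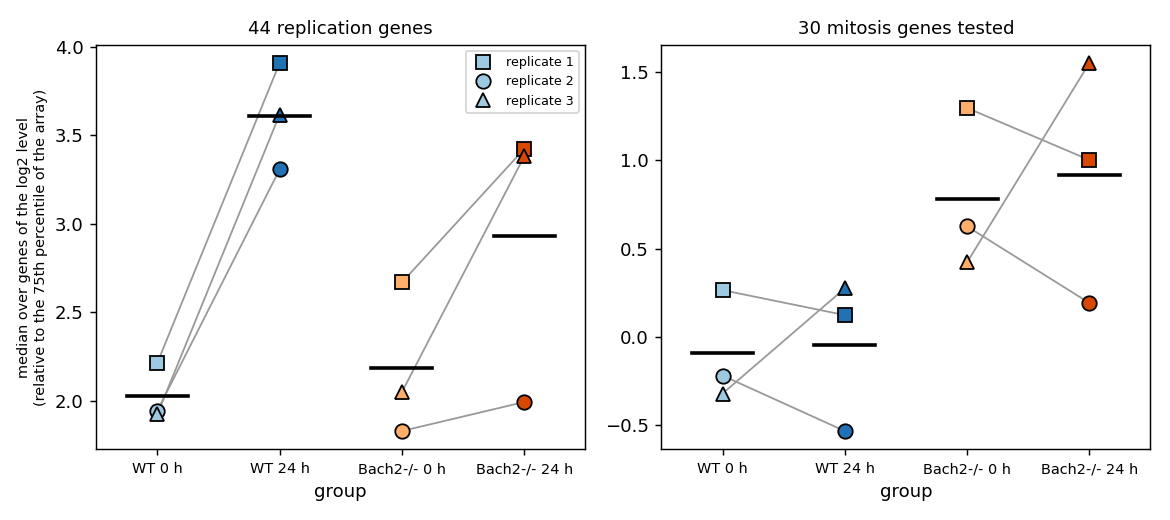
Median log2 level over genes on each array (y axis, log2 of signal over the array's 75th percentile) by group, for the 44 replication genes (left) and 30 mitosis genes (right). Each marker is 1 array, thin lines join the same replicate number within a genotype and bars are group means. The replication medians lay between 1.92 and 2.21 at 0 h and between 3.31 and 3.91 at 24 h in WT cells, and Bach2-/- 24 h replicate 2 stayed at 1.99.

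In WT cells 26 of the 44 genes rose after 24 h of anti-IgM and 0 fell. The median log2 level of the 44 genes was 2.21, 1.94 and 1.92 before stimulation and 3.91, 3.31 and 3.62 after it, so those medians did not overlap. All 44 differences (24 h minus 0 h) were above 0, from 0.02 for Rpa1 to 4.39 for Orc1 (under quantile normalization 5, Cdt1, Gins3, Rfc1, Pold1 and Rpa1, none of them called, lay below 0), with a median difference of 1.54 on the log2 scale against 0.04 over all genes tested. At an adjusted p under 0.05 (limma, two-sided, Benjamini-Hochberg over the 22744 genes) 26 of 44 rose, where 11.5% of all genes rose. The count was 15 without WT 0 h replicate 3 or without WT 24 h replicate 1 (shares of all genes in these fits are not given). Under normexp background correction 7 of the 26 (Cdc6, Mcm7, Rfc5, Pola1, Prim1, Fen1 and Chaf1b) missed that threshold, and the log2 differences of Orc1, Cdc6 and Cdc45 were 1.38, 1.15 and 0.83. That correction added an offset of 50 intensity units, which makes log2 differences of dim probes smaller. The groups did not overlap for 34 of 44 genes, against 22.2% of all genes in that direction. With the replicate number as a block, a term that takes out what same-numbered arrays share, 37 rose (36 of the 43 genes other than Orc1), against 27.6% of all genes. Of the 7 B cell markers 5 fell in WT cells without a block and 7 with it (median log2 difference -1.66), as did 5 and 6 of 6 germinal centre markers. Of all genes 9.06% fell without a block and 19.3% with it. The part of the markers was not tested. The median difference was 1.43 on slide 1 and 1.84 on slide 2. In bulk RNA a difference in the number of cells that express a gene and one in its RNA per cell cannot be told apart. The labels do not say whether replicates came from separate mice or cultures, so p-values measure the spread between these arrays, which may be technical.

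**Figure D2:**
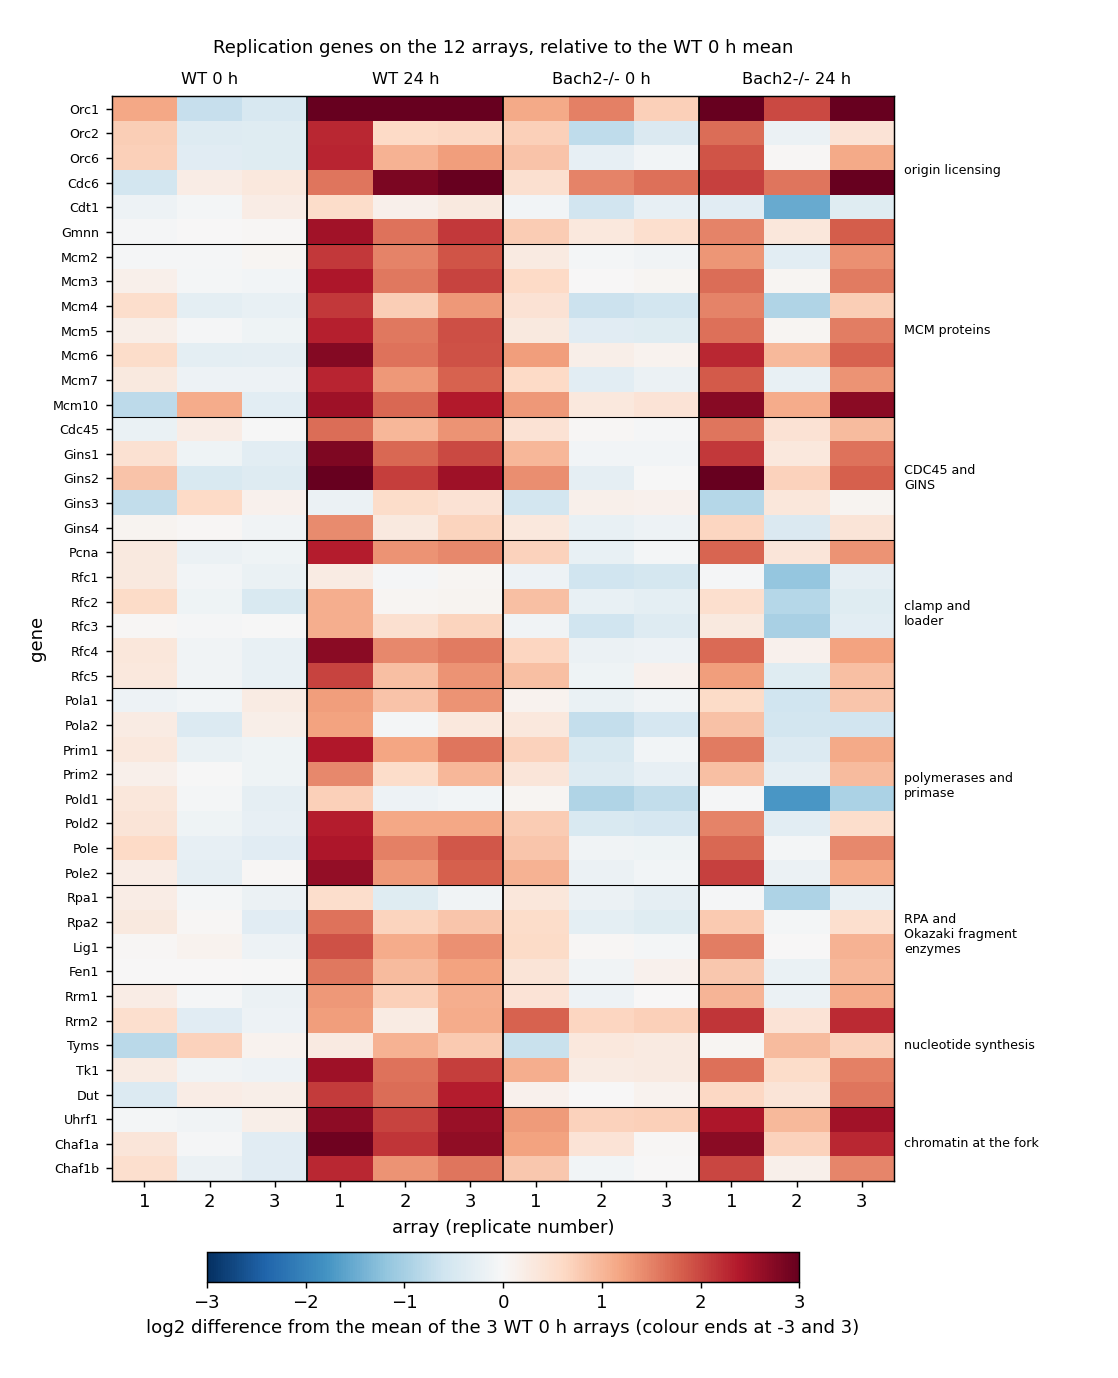
Level of each of the 44 genes (rows, by role) on each of the 12 arrays (columns, by group and replicate number), as the log2 difference from the mean of the 3 WT 0 h arrays. Most rows are red on all 3 WT 24 h arrays, paler on the Bach2-/- 24 h arrays, and near white or blue on Bach2-/- 24 h replicate 2, which was the lowest array of its group for 41 of 44 genes.

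In Bach2-/- cells 20 of the 44 genes rose after 24 h with the replicate block, and 1, Orc1, without it. The Orc1 probe was not well above background on 1 of the 3 arrays at each time. Of the other 43 genes 0 rose without a block and 19 with the replicate block. The median log2 level of the set was 2.67, 1.83 and 2.05 before stimulation and 3.42, 1.99 and 3.38 after it. The second 24 h array lay within the 0 h range, and only Orc1, Cdc45 and Dut had groups without overlap, 3 of 44 against 11.4% of all genes. The median difference (24 h minus 0 h) was 0.71 on the log2 scale against 0.07 over all genes, and 38 of 44 differences were above 0 (37 under quantile normalization, without Rfc3). Without a block 5.5% of all genes rose and with the replicate block 16.7%, and 0 of the 44 fell in either fit. With the block and 1 array left out the count ran from 8 to 34, the highest without Bach2-/- 24 h replicate 2 (shares of all genes in these fits are not given). All 20 were also among the 37 that rose in WT cells with the block. Without Bach2-/- 24 h replicate 2, 15 of 44 rose and the median difference was 1.15 (6.87% of all genes rose). Without it and Bach2-/- 0 h replicate 1, 25 rose and the median difference was 1.38 (8.2% of all genes rose). That fit had no block and set 0 h arrays of slide 1 against 24 h arrays of both slides. Replicate 1, on slide 2, was the highest array of its group for 32 to 40 of the 44 genes. With the replicate block the median was 1.03 without Bach2-/- 24 h replicate 2 and 1.14 without both doubted arrays, with 39 of 44 above 0 in each. Of the 7 B cell markers 7 fell in Bach2-/- cells with or without the block (median log2 difference -2.43), as did 5 of 6 germinal centre markers without it and 6 with it. Of all genes 7.74% fell without the block and 16.8% with it. The part of the markers was not tested. The median difference was 0.65 on slide 1 and 0.87 on slide 2.

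The response difference, the Bach2-/- change minus the WT change, was below 0 for 44 of 44 genes (42 under quantile normalization, without Rfc1 and Rpa1), with a median of -0.78 on the log2 scale against -0.09 over all genes, of which 44.4% were above 0. None of the 44 passed the test without a block, where 0.317% of all genes did in either direction, and 5 of 44 had an unadjusted p under 0.05 and a smaller response (Orc1, Gmnn, Tk1, Uhrf1 and Dut), against 3.51% of all genes. Orc1 passed the filter on dim probes through the WT 24 h group alone, where it is high, so its smaller response is given as a description. When only probes above background on all 12 arrays were kept, 43 of 43 differences were below 0, with a median of -0.78. With the replicate block Gins2 and Tk1 passed, both with the smaller response in Bach2-/- cells, where 2.56% of all genes passed in that direction. With the slide as the block Tk1 alone passed, where 2.04% did. With the replicate block and 1 array left out the count ran from 0 to 15, the highest without WT 0 h replicate 2 (shares of all genes in these fits are not given). Within all 3 same-numbered sets of 4 arrays the difference was below 0 for 38 of 44 genes. The size moved with the doubted arrays. Without Bach2-/- 24 h replicate 2 the median was -0.39 and 40 of 44 were below 0 (-0.47 and 42 with the replicate block). Without both it was -0.17 and 30 of 44 were below 0, with 0 called, and with both left out and the replicate block kept it was -0.39 with 40 below 0 and 0 called.

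**Figure D3:**
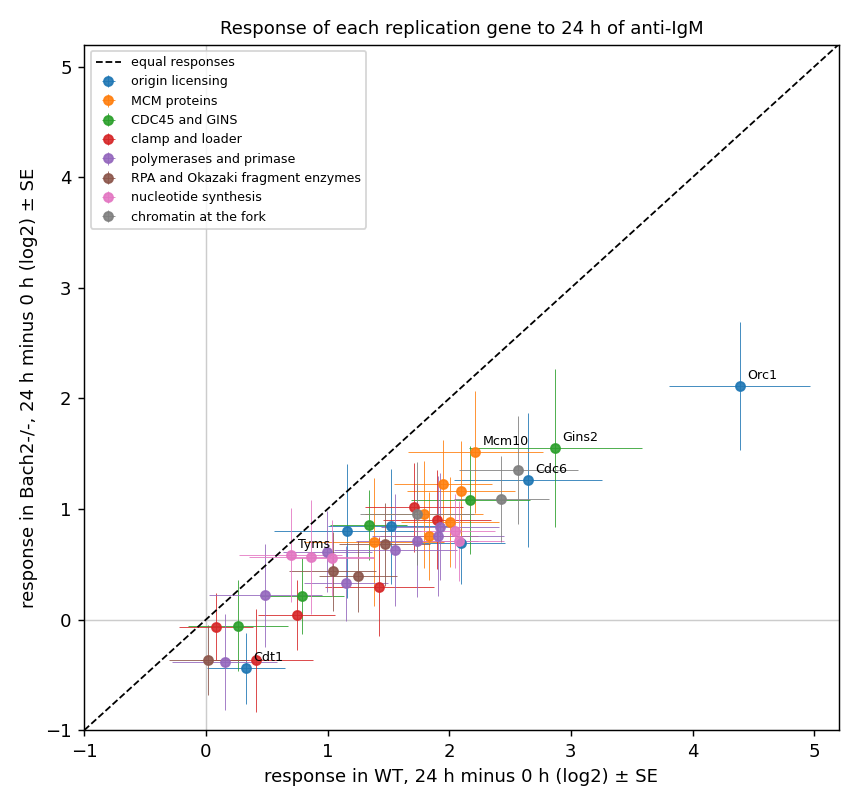
Response of each of the 44 genes (24 h minus 0 h, log2 difference ± SE of the fit) in WT cells (x axis) and Bach2-/- cells (y axis), coloured by role. The dashed line marks equal responses. All 44 points lie below it (under quantile normalization Rfc1 and Rpa1 would not), Orc1 lies farthest to the right at 4.39 (1.38 under normexp background correction), and 0 of 44 differences between the responses passed the test without a block.

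At 24 h 0 of the 44 genes passed the test between the genotypes without a block, and 19 were lower in Bach2-/- cells with the replicate block. The median difference (Bach2-/- minus WT) was -0.70 on the log2 scale at 24 h against -0.05 over all genes, and 43 of 44 values, all but that of Rrm2, were below 0 (42 under quantile normalization, where Mcm10 lay above 0, and 41 under normexp background correction, where Cdc6 and Mcm10 did). Without a block 0 of 44 passed, where 2.98% of all genes did in either direction. An unadjusted p under 0.05 with a lower level was found for 10 of 44 (5.71% of all genes), and for 5 of 44 every Bach2-/- array lay below every WT array (7.56% of all genes). With the replicate block 19 were lower and 0 higher, where 10.7% of all genes were lower. Taking the slide in place of the number left 10 lower, all among the 19, where 8.58% of all genes were. The count with the replicate block was 2 without WT 24 h replicate 1 or 2 and 27 without Bach2-/- 24 h replicate 3 (shares of all genes in these fits are not given). The median difference was -0.76 on slide 1 and -0.65 on slide 2. By same-numbered pair the median differences were -0.65, -1.21 and -0.37 for replicates 1, 2 and 3, and 40 of 44 values were below 0 in all 3 pairs.

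Without Bach2-/- 24 h replicate 2 and without a block, the median genotype difference at 24 h was -0.33. Of 44 values 39 were below 0, and 0 passed. With the replicate block the median was -0.46 and 41 were below 0. With the block and without that array 5 were lower, where 5.59% of all genes were, and 1 was higher, where 6.44% were. With both doubted arrays left out and the block kept, Cdt1, Rfc3 and Pold1 were lower and Rrm2 higher, where 3.77% and 5.54% of all genes were; the other 16 of the 19 genes did not pass. Markers of cell types also moved with genotype at 24 h: the log2 of the summed level of B cell markers ran from 8.80 to 9.72 in WT and from 7.86 to 8.64 in Bach2-/- cells, of T cell markers (5 of 5 tested) from 3.80 to 4.40 and from 4.48 to 5.21, of erythroid markers from 0.62 to 2.05 and from 3.07 to 4.36, and of neutrophil markers from 0.82 to 4.20 and from 3.67 to 5.79. Of these lists, 4 of 7 B cell markers were lower, and 2 of 5 T cell, 2 of 4 erythroid and 3 of 7 neutrophil markers higher, with the replicate block. With that block 10.7% of all genes were lower and 7.98% higher. The summed log2 level of monocyte and macrophage markers ran from 3.83 to 5.02 in WT and from 3.98 to 5.93 in Bach2-/- cells (3 of 6 higher with the block), of plasma cell markers from 6.59 to 7.46 in WT and from 6.96 to 7.89 in Bach2-/- cells (3 of 5 higher), and of germinal centre markers from 2.06 to 2.92 in WT and from 1.31 to 1.85 in Bach2-/- cells (2 higher and 2 lower of 6). Their part in the differences of the replication genes was not tested.

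**Figure D4:**
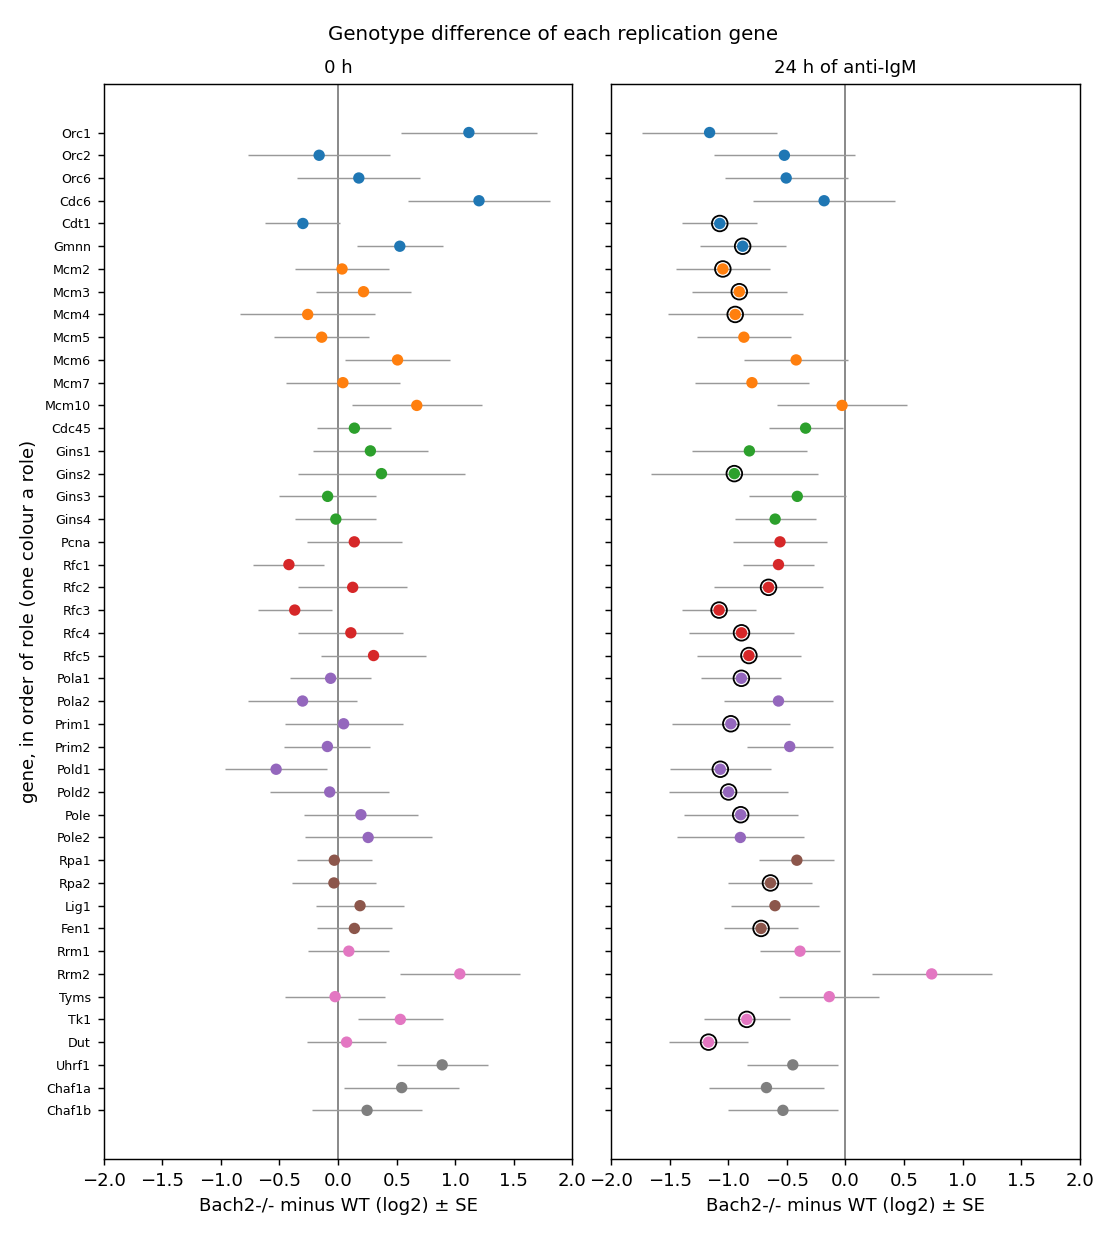
Genotype difference of each of the 44 genes (Bach2-/- minus WT, log2 difference ± SE of the fit) at 0 h (left) and after 24 h of anti-IgM (right), with rows in order of role and 1 colour a role. Black rings mark the 19 genes past the test with the replicate block, all at 24 h. Without a block 0 of 44 passed. With the block and without both doubted arrays only Cdt1, Rfc3 and Pold1 of the 19 passed. At 0 h the points lie on both sides of 0, and at 24 h all but Rrm2 lie below 0 (Mcm10 lies above 0 under quantile normalization, and Mcm10 and Cdc6 under normexp background correction).

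Before stimulation the genotypes were not told apart over the set. The median log2 level of the 44 genes averaged 2.03 ± 0.16 (SD, n = 3) in WT and 2.18 ± 0.44 in Bach2-/- cells. The median difference was 0.12 on the log2 scale against 0.03 over all genes, with 28 of 44 values above 0 and 16 below it (25 above under quantile normalization and 31 under normexp background correction). None passed the test without a block (0.629% of all genes did) or with the replicate block (3.7% did), and 1 of 44, Uhrf1, was higher at an unadjusted p under 0.05, against 3.9% of all genes. Every Bach2-/- array lay above every WT array for 4 of 44 genes (Cdc6, Gmnn, Rrm2 and Uhrf1), against 7.18% of all genes, and below for Rfc3, against 4.9%. The median was -0.03 on slide 1 and 0.31 on slide 2, and 0.31, -0.11 and 0.08 by same-numbered pair. Leaving out Bach2-/- 0 h replicate 1 gave a median of -0.13 with 15 of 44 above 0 without a block, and 0.095 with 28 above 0 with the replicate block. The log2 of the summed level of erythroid markers (4 of 7 tested) ran from 1.65 to 3.50 in WT and from 4.37 to 5.96 in Bach2-/- cells, and that of neutrophil markers (7 of 8 tested) from 3.64 to 5.08 and from 4.86 to 5.88. With the block 3 of 4 erythroid and 3 of 7 neutrophil markers were higher, where 2.78% of all genes were. Also higher with the block were 2 of 5 plasma cell, 1 of 6 monocyte and macrophage and 1 of 6 germinal centre markers. In each of these lists 1 passed without a block (log2 differences up to 3.39, 3.16 and 3.36, adjusted p = 0.0019, 0.0024 and 0.0017). Values below 0 were found for 2 of 5, 2 of 6 and 4 of 6. Summed log2 levels of plasma cell markers ran from 5.90 to 6.49 in WT and from 6.24 to 7.36 in Bach2-/- cells. Those of monocyte and macrophage markers ran from 4.92 to 6.18 and from 4.58 to 5.99, and of germinal centre markers from 4.92 to 5.39 and from 4.66 to 5.26. Their part in the 0 h values was not tested.

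Among the 6 origin licensing genes, 3 rose in WT cells without a block (Orc1, Cdc6 and Gmnn) and 5 with the replicate block, all but Cdt1, where 11.5% and 27.6% of all genes rose. Orc1, the largest subunit of the origin recognition complex, had log2 levels of -4.18, -6.05 and -5.83 before and -0.62, -1.43 and -0.86 after stimulation in WT cells. Orc1 levels in Bach2-/- cells were -4.22, -3.85 and -4.64 before and -1.39, -3.38 and -1.61 after stimulation, also as log2. The times did not overlap in either genotype, and of the 24 h arrays Bach2-/- replicate 2 lay closest to the unstimulated ones. The log2 difference of Orc1 after 24 h was 4.39 ± 0.58 (SE) in WT cells (adjusted p = 0.000384) and 2.11 ± 0.58 in Bach2-/- cells (adjusted p = 0.0316). Its probe was well above background on only 1 of 3 WT 0 h arrays, 3 of 3 WT 24 h arrays, 2 of 3 Bach2-/- 0 h and 2 of 3 Bach2-/- 24 h arrays, so its differences from 0 h rest on spots near background. It passed the filter on dim probes through the WT 24 h group alone, so its calls are given as a description. Of the other 43 genes 25 rose in WT cells without a block and 36 with the replicate block. With normexp background correction and its offset of 50 intensity units the log2 difference of Orc1 was 1.38 in WT and 0.88 in Bach2-/- cells. Such an offset makes log2 differences of dim probes smaller. The Bach2-/- call was lost in 8 of the other settings, among them quantile normalization, slide 1 alone and 5 of the 6 fits without 1 Bach2-/- array, with adjusted p up to 0.126.

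Cdc6, which loads the MCM ring together with CDT1, had log2 levels of -4.34, -3.55 and -3.45 before and -2.18, -0.96 and -0.26 after stimulation in WT cells. Cdc6 levels in Bach2-/- cells were -3.31, -2.30 and -2.13 before and -1.74, -2.18 and -0.03 after stimulation, also as log2. The times did not overlap in WT cells and did so through replicate 2 in Bach2-/- cells, and all Bach2-/- 0 h arrays lay above the WT 0 h arrays. The log2 difference after 24 h was 2.65 ± 0.61 in WT cells (adjusted p = 0.0102) and 1.26 ± 0.61 in Bach2-/- cells (adjusted p = 0.243, 0.0211 with the block). A second Cdc6 probe gave smaller log2 differences of 1.58 and 0.07. Its log2 genotype difference was 0.83 at 0 h and -0.68 at 24 h, against 1.20 and -0.18 for the probe used. The licensing factor Cdt1 had log2 levels of 4.81, 4.90 and 5.20 before and 5.52, 5.13 and 5.26 after stimulation in WT cells. Cdt1 levels in Bach2-/- cells were 4.89, 4.39 and 4.73 before and 4.62, 3.46 and 4.60 after stimulation, also as log2. Every Bach2-/- 24 h array lay below every WT 24 h array, and the log2 genotype difference of -1.07 ± 0.32 had an adjusted p of 0.127, or 0.0127 with the replicate block. Without both doubted arrays it also passed with the block (-0.76, adjusted p = 0.0404). Cdt1 itself did not pass the test for a 24 h change in either genotype.

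Gmnn, which encodes geminin, the inhibitor of CDT1, had log2 levels of -0.36, -0.31 and -0.29 before and 2.21, 1.31 and 1.80 after stimulation in WT cells. Gmnn levels in Bach2-/- cells were 0.44, -0.002 and 0.19 before and 1.18, 0.02 and 1.50 after stimulation, also as log2. The Bach2-/- arrays lay above WT at 0 h without overlap, and each lay below the WT array of its number at 24 h. The log2 difference after 24 h was 2.09 ± 0.37 in WT (adjusted p = 0.00222) and 0.69 ± 0.37 in Bach2-/- cells (adjusted p = 0.3), and the response difference of -1.40 ± 0.52 had an adjusted p of 0.537 (0.06 with the block). Orc2 and Orc6, the other origin recognition subunits of the set, had WT log2 differences of 1.16 and 1.52 that passed with the block alone (adjusted p = 0.000386 and 0.000217).

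Of the 7 MCM genes, which encode the subunits of the helicase ring (Mcm2 to Mcm7) and the initiation factor MCM10, 6 rose in WT cells without a block and 7 with it, where 11.5% and 27.6% of all genes rose. Mcm3 had log2 levels of 4.29, 4.08 and 4.06 before and 6.57, 5.72 and 6.17 after stimulation in WT cells. Mcm3 levels in Bach2-/- cells were 4.74, 4.15 and 4.19 before and 5.82, 4.21 and 5.71 after stimulation, also as log2. The WT arrays parted by time with a wide gap, while Bach2-/- 24 h replicate 2 stayed among the 0 h values. The log2 difference of Mcm3 after 24 h was 2.01 ± 0.40 in WT cells (4.02-fold, adjusted p = 0.00507) and 0.89 ± 0.40 in Bach2-/- cells (adjusted p = 0.213, 0.0295 with the block). The ring subunits had WT log2 differences between 1.38 for Mcm4 and 2.09 for Mcm6, against 0.70 for Mcm4 to 1.22 for Mcm5 in Bach2-/- cells. Mcm7 had 1.79 ± 0.48 in WT cells (adjusted p = 0.0223) and 0.95 ± 0.48 in Bach2-/- cells (adjusted p = 0.276, 0.0266 with the block).

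Mcm10 had log2 levels of -1.19, 0.70 and -0.73 before and 2.14, 1.31 and 1.97 after stimulation in WT cells. Mcm10 levels in Bach2-/- cells were 0.89, -0.10 and 0.01 before and 2.34, 0.71 and 2.30 after stimulation, also as log2. Both genotypes reached like levels at 24 h on replicates 1 and 3, and the WT 0 h arrays were spread over almost as wide a range as the change itself. The log2 genotype difference at 24 h was -0.03 ± 0.55 (adjusted p = 0.991), the smallest in size of the set, while those of the ring subunits ran from -1.05 for Mcm2 to -0.42 for Mcm6. With the replicate block 10.7% of all genes were lower in Bach2-/- cells at 24 h. Among the MCM genes these were Mcm2, Mcm3 and Mcm4 (adjusted p = 0.0416, 0.0439 and 0.0478), with 0 of 7 without that block or with the slide as the block. With both doubted arrays left out and the replicate block kept, these differences were -0.56, -0.50 and -0.48 (adjusted p = 0.105, 0.135 and 0.122).

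CDC45 and the 4 GINS subunits complete the active helicase. Gins2 had log2 levels of 0.20, -1.12 and -1.03 before and 3.35, 1.43 and 1.88 after stimulation in WT cells. Gins2 levels in Bach2-/- cells were 0.74, -0.91 and -0.67 before and 2.64, 0.03 and 1.15 after stimulation, also as log2. Replicate 1 was the highest array in every group, and within each replicate number the Bach2-/- 24 h array was lower than the WT 24 h array. The log2 difference after 24 h was 2.87 ± 0.71 in WT (adjusted p = 0.0151) and 1.55 ± 0.71 in Bach2-/- cells (adjusted p = 0.215, 0.000442 with the block). The response difference of -1.32 ± 1.01 passed with the replicate block alone (adjusted p = 0.0472, 0.885 without), but not without both doubted arrays (-1.01, adjusted p = 0.113).

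Cdc45 itself had log2 levels of -2.03, -1.62 and -1.86 before and -0.17, -0.84 and -0.49 after stimulation in WT cells. Cdc45 levels in Bach2-/- cells were -1.41, -1.80 and -1.88 before and -0.23, -1.40 and -0.89 after stimulation, also as log2. The times did not overlap in either genotype, narrowly in Bach2-/- cells, and the genotypes overlapped at both times. Its log2 difference after 24 h was 1.34 ± 0.32 in WT (adjusted p = 0.0118) and 0.86 ± 0.32 in Bach2-/- cells (adjusted p = 0.11, 0.0221 with the block). The GINS subunits were uneven in WT cells, with log2 differences of 2.17 for Gins1 (adjusted p = 0.00919), 0.79 for Gins4 and 0.27 for Gins3, the last of which passed in neither fit.

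The sliding clamp and 2 of the 5 subunits of its loader, replication factor C, rose in WT cells without a block, where 11.5% of all genes rose. Pcna, the clamp, had log2 levels of 5.42, 4.95 and 4.98 before and 7.47, 6.46 and 6.57 after stimulation in WT cells. Pcna levels in Bach2-/- cells were 5.81, 4.90 and 5.06 before and 6.86, 5.49 and 6.47 after stimulation, also as log2. WT arrays parted by time, and the Bach2-/- 24 h arrays lay below the WT arrays of the same replicate number. The log2 difference of Pcna after 24 h was 1.71 ± 0.40 in WT (adjusted p = 0.0117) and 1.02 ± 0.40 in Bach2-/- cells (adjusted p = 0.143, 0.00321 with the block). Among loader subunits Rfc4 and Rfc5 rose in WT cells (log2 differences 1.90 ± 0.45 and 1.43 ± 0.45, adjusted p = 0.0116 and 0.0426), Rfc3 passed with the block alone (0.75 ± 0.32, adjusted p = 0.011), and Rfc1 and Rfc2 passed in neither fit (0.09 ± 0.30 and 0.41 ± 0.46).

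Rfc3 had log2 levels of 0.50, 0.43 and 0.45 before and 1.55, 0.94 and 1.13 after stimulation in WT cells. Rfc3 levels in Bach2-/- cells were 0.35, -0.14 and 0.06 before and 0.76, -0.52 and 0.15 after stimulation, also as log2. The Bach2-/- arrays lay below the WT arrays at both times without overlap. The log2 genotype difference of Rfc3 was -0.37 ± 0.32 at 0 h (adjusted p = 0.9998, 0.388 with the block) and -1.08 ± 0.32 at 24 h (adjusted p = 0.12, 0.00683 with the block), the smallest blocked p of the set at 24 h. Without both doubted arrays it also passed with the block (-0.84, adjusted p = 0.03). Rfc4 had log2 levels of 3.04, 2.60 and 2.48 before and 5.41, 4.15 and 4.26 after stimulation in WT cells, and 3.35, 2.54 and 2.55 before and 4.40, 2.84 and 3.91 after in Bach2-/- cells. Its WT 24 h arrays were all above the 0 h arrays of either genotype, and its log2 genotype difference at 24 h of -0.89 ± 0.45 passed with the block alone (adjusted p = 0.0299), but not without both doubted arrays (-0.59, adjusted p = 0.125).

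The large loader subunit Rfc1 had log2 levels of 4.01, 3.63 and 3.53 before and 3.98, 3.68 and 3.77 after stimulation in WT cells, and 3.57, 3.13 and 3.20 before and 3.70, 2.57 and 3.45 after in Bach2-/- cells. The WT times overlapped, and each Bach2-/- array lay below the WT array of its number at both times. Rfc2 had log2 levels of 4.46, 3.75 and 3.42 before and 4.96, 3.94 and 3.96 after stimulation in WT cells, and 4.78, 3.64 and 3.57 before and 4.37, 3.01 and 3.51 after in Bach2-/- cells. Its log2 difference after 24 h was -0.37 ± 0.46 in Bach2-/- cells, one of 6 in the set below 0, and its genotype difference at 24 h of -0.66 ± 0.46 passed with the block alone (adjusted p = 0.0262), but not without both doubted arrays (-0.47, adjusted p = 0.0921).

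Of the 8 polymerase and primase genes 4 rose in WT cells without a block (Pola1, Prim1, Pole and Pole2) and 6 with it, where 11.5% and 27.6% of all genes rose. At 24 h 5 of 8 were lower in Bach2-/- cells with the block (Pola1, Prim1, Pold1, Pold2 and Pole), where 10.7% of all genes were. Of these only Pold1 also passed with the block and without both doubted arrays. The Pole difference was then -0.49 (adjusted p = 0.146), against -0.89 (adjusted p = 0.0455) with all arrays. Pola1, the catalytic subunit of polymerase alpha, which lays down primers with primase, had log2 levels of 0.91, 0.99 and 1.30 before and 2.33, 1.92 and 2.42 after stimulation in WT cells. Pola1 levels in Bach2-/- cells were 1.19, 0.87 and 0.97 before and 1.64, 0.47 and 1.89 after stimulation, also as log2. Every Bach2-/- 24 h array lay below every WT 24 h array, narrowly in the case of replicate 3. The log2 genotype difference at 24 h was -0.89 ± 0.34 (adjusted p = 0.285, 0.0337 with the block). It did not pass with the block once both doubted arrays were left out (-0.52, adjusted p = 0.0935). Its partner Pola2 had log2 levels of -1.45, -2.10 and -1.51 before and -0.48, -1.75 and -1.37 after stimulation in WT cells, and -1.38, -2.40 and -2.20 before and -0.80, -2.24 and -2.27 after in Bach2-/- cells, with overlap in every comparison. Prim2, the large primase subunit, had a WT log2 difference of 0.997 ± 0.37 that passed with the block alone (adjusted p = 0.0791 without, 0.00549 with).

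Prim1, the catalytic primase subunit, had log2 levels of 2.58, 2.05 and 2.13 before and 4.66, 3.45 and 3.86 after stimulation in WT cells. Prim1 levels in Bach2-/- cells were 2.94, 1.79 and 2.17 before and 3.80, 1.84 and 3.39 after stimulation, also as log2. The WT arrays parted by time, and Bach2-/- 24 h replicate 2 stayed at 0 h levels. The log2 difference after 24 h was 1.74 ± 0.50 in WT (adjusted p = 0.0307) and 0.71 ± 0.50 in Bach2-/- cells (adjusted p = 0.488), and the genotype difference at 24 h of -0.98 ± 0.50 passed with the block alone (adjusted p = 0.0308), but not without both doubted arrays (-0.59, adjusted p = 0.0897).

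Polymerase delta copies the lagging strand, and Pold2 but not Pold1 passed the WT test with the block. Its catalytic subunit Pold1 had log2 levels of 5.43, 5.05 and 4.83 before and 5.81, 4.94 and 5.01 after stimulation in WT cells. Pold1 levels in Bach2-/- cells were 5.15, 4.20 and 4.37 before and 5.06, 3.35 and 4.16 after stimulation, also as log2. WT arrays overlapped between the times, and each Bach2-/- array was below the WT array of its number. The log2 genotype difference was -0.53 ± 0.43 at 0 h, the lowest of the set, and -1.07 ± 0.43 at 24 h (adjusted p = 0.321, 0.0111 with the block). It also passed with the block and without both doubted arrays (-0.76, adjusted p = 0.0331). Pold2, a smaller subunit, had log2 levels of 1.62, 1.11 and 1.000 before and 3.59, 2.41 and 2.40 after stimulation in WT cells, and 2.001, 0.78 and 0.73 before and 2.73, 0.92 and 1.76 after in Bach2-/- cells. WT arrays of Pold2 parted by time, with a log2 difference of 1.56 ± 0.51 that passed with the block alone (adjusted p = 0.0505 without, 0.000389 with), and its genotype difference at 24 h of -0.997 ± 0.51 did likewise (adjusted p = 0.0178), but not without both doubted arrays (-0.69, adjusted p = 0.0568). Pole, the catalytic subunit of the leading strand polymerase epsilon, rose by 1.93 on the log2 scale in WT cells (adjusted p = 0.016), and its partner Pole2 by 1.91 (adjusted p = 0.0281).

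RPA coats single-stranded DNA, and FEN1 and LIG1 trim and join Okazaki fragments. Rpa2 had log2 levels of 1.60, 1.34 and 0.97 before and 2.92, 1.97 and 2.14 after stimulation in WT cells. Rpa2 levels in Bach2-/- cells were 1.86, 1.002 and 0.94 before and 2.09, 1.24 and 1.79 after stimulation, also as log2. Times did not overlap in WT cells and did in Bach2-/- cells. The log2 difference of Rpa2 after 24 h was 1.04 ± 0.36 in WT cells (adjusted p = 0.0616, 0.00133 with the block), and its genotype difference at 24 h was -0.64 ± 0.36 (adjusted p = 0.535, 0.0424 with the block, and -0.49, adjusted p = 0.168 without both doubted arrays). Rpa1, the large RPA subunit, had log2 levels of 6.14, 5.85 and 5.73 before and 6.43, 5.55 and 5.80 after stimulation in WT cells, and 6.25, 5.73 and 5.64 before and 5.87, 4.97 and 5.69 after in Bach2-/- cells. Its WT groups overlapped, with the smallest 24 h difference of the set. Lig1 and Fen1 rose in WT cells by 1.47 and 1.25 on the log2 scale (adjusted p = 0.0169 and 0.017), and had differences of 0.68 and 0.39 in Bach2-/- cells that passed in neither fit.

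Of the 5 nucleotide synthesis genes, 2 rose in WT cells without a block (Tk1 and Dut) and 5 with it (Rrm1, Rrm2, Tyms, Tk1, Dut), where 11.5% and 27.6% of all genes rose. Tk1, the thymidine kinase of the S phase salvage route, had log2 levels of 1.12, 0.78 and 0.71 before and 3.41, 2.49 and 2.95 after stimulation in WT cells. Tk1 levels in Bach2-/- cells were 1.96, 1.11 and 1.13 before and 2.53, 1.42 and 2.38 after stimulation, also as log2. Each Bach2-/- array was above its WT partner at 0 h and below it at 24 h. The log2 difference after 24 h was 2.08 ± 0.37 in WT (adjusted p = 0.00226) and 0.71 ± 0.37 in Bach2-/- cells (adjusted p = 0.283, 0.0216 with the block). The response difference of -1.37 ± 0.52 had an adjusted p of 0.557, 0.032 with the replicate block and 0.0482 with the slide block. Without both doubted arrays it did not pass with the replicate block (-1.02, adjusted p = 0.128).

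Dut, the dUTPase that keeps uracil out of DNA, had log2 levels of 1.35, 1.98 and 1.94 before and 3.85, 3.44 and 4.11 after stimulation in WT cells. Dut levels in Bach2-/- cells were 1.88, 1.76 and 1.85 before and 2.38, 2.15 and 3.37 after stimulation, also as log2. The genotypes overlapped at 0 h, and at 24 h every Bach2-/- array lay below every WT array. The log2 genotype difference at 24 h was -1.17 ± 0.33, the lowest of the set (adjusted p = 0.107, 0.0139 with the block). This call was lost without both doubted arrays (-0.93, adjusted p = 0.0702). The log2 difference after 24 h was 2.04 ± 0.33 in WT (adjusted p = 0.00152) and 0.80 ± 0.33 in Bach2-/- cells (adjusted p = 0.164, 0.0334 with the block).

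Rrm2, the small subunit of ribonucleotide reductase and its S phase-regulated part, had genotype differences above 0 at both times. Its log2 levels were 2.26, 1.43 and 1.60 before and 3.01, 2.01 and 2.87 after stimulation in WT cells. Rrm2 levels in Bach2-/- cells were 3.52, 2.40 and 2.48 before and 3.92, 2.17 and 4.01 after stimulation, also as log2. Each Bach2-/- array was above the WT array of its number at both times, without overlap between the groups at 0 h. The log2 genotype difference was 1.04 ± 0.51 at 0 h (adjusted p = 0.903, 0.0985 with the block) and 0.74 ± 0.51 at 24 h (adjusted p = 0.64, 0.105 with the block), so neither passed. With both doubted arrays left out and the block kept, the 24 h difference was 1.14 (adjusted p = 0.0251). The large subunit gene Rrm1 had a log2 genotype difference of -0.39 ± 0.35 at 24 h. Tyms, which makes thymidylate, had log2 levels of -1.93, -0.42 and -1.005 before and -0.85, -0.06 and -0.34 after stimulation in WT cells, and -1.78, -0.80 and -0.86 before and -1.07, -0.18 and -0.43 after in Bach2-/- cells. Its groups overlapped in all comparisons, and its log2 response difference of -0.11 ± 0.60 was the nearest to 0 of the set.

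Of the 3 genes that rebuild chromatin behind the fork, all rose in WT cells without a block, where 11.5% of all genes rose. Uhrf1, which recruits maintenance DNA methylation, had a WT log2 difference of 2.43 ± 0.39 (adjusted p = 0.00133), and Chaf1a and Chaf1b, subunits of chromatin assembly factor 1, had 2.57 ± 0.49 and 1.74 ± 0.47 (adjusted p = 0.00371 and 0.0216). The Bach2-/- log2 differences were 1.09, 1.35 and 0.96, and passed with the block alone. At 0 h Uhrf1 had a log2 genotype difference of 0.89 ± 0.39 (adjusted p = 0.775), with no overlap between the groups. A second Uhrf1 probe gave 0.60 at 0 h, and responses of 2.16 in WT and 1.51 in Bach2-/- cells. Its response difference was -0.65, against -1.34 for the probe used.

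**Figure D5:**
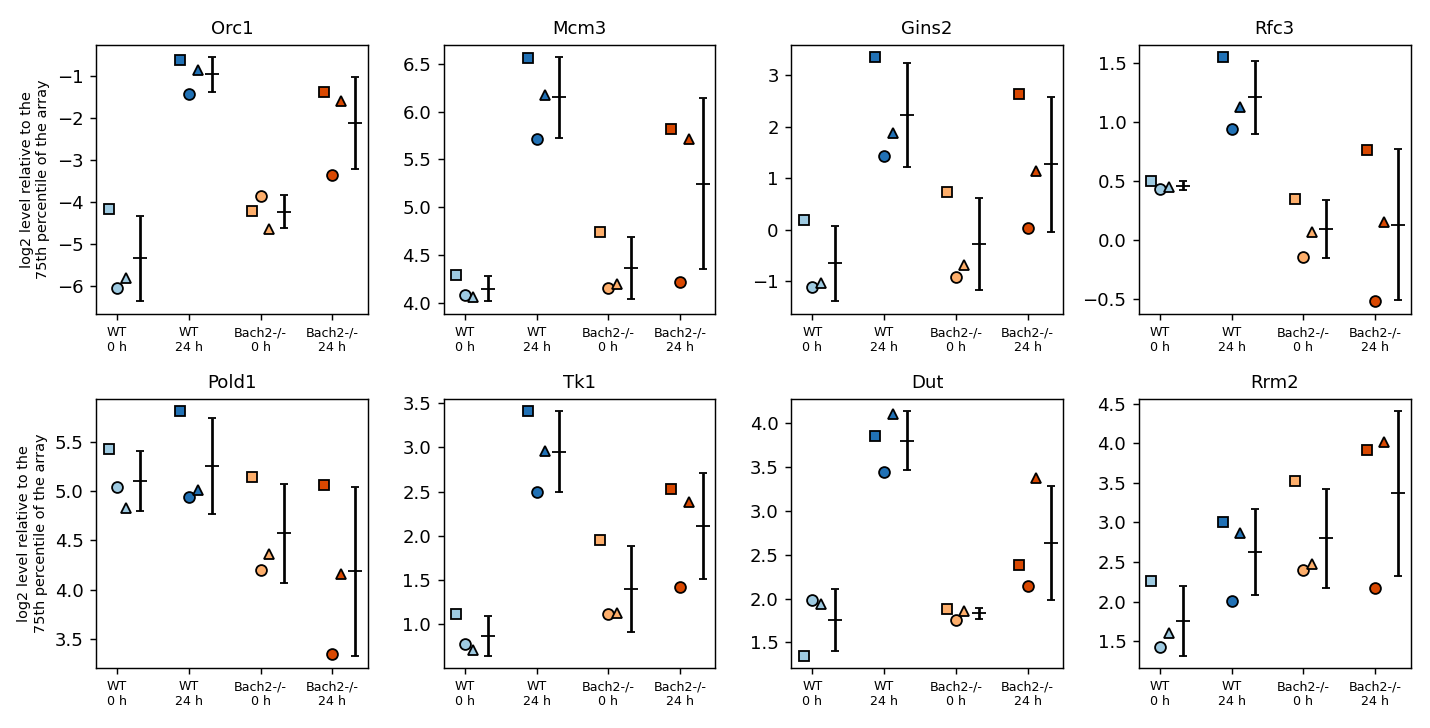
Log2 level (signal over the array's 75th percentile) of 8 of the genes on each array, by group. Squares, circles and triangles are replicates 1, 2 and 3, and the bar beside each group is the mean ± SD (n = 3). Rfc3 and Dut show every Bach2-/- 24 h array below every WT 24 h array, while Rrm2 shows each Bach2-/- array above its WT partner.

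A further 56 genes of the pathway, listed for their function, are given by count. In WT cells 26 of 56 rose and 2 fell without a block, where 11.5% and 9.06% of all genes did, with a median log2 difference of 1.06. With the replicate block 42 rose and 4 fell, where 27.6% and 19.3% did. The largest rises were 2.91 for Shmt1, which supplies one-carbon units for thymidylate, 2.57 for the dCMP deaminase Dctd, 2.51 for the alternative clamp loader subunit Dscc1 and 2.28 for the fork protection gene Timeless. Samhd1, which breaks down deoxynucleotides, and Rrm2b, the p53-induced small reductase subunit, fell by 1.86 and 1.62 on the log2 scale. In Bach2-/- cells 2 rose (Recql4 by 1.58 and Mcm8 by 1.40) and 2 fell (Samhd1 by 2.73 and Tk2 by 1.79), where 5.5% and 7.74% of all genes did. With the block 24 rose and 4 fell, where 16.7% and 16.8% did. At 24 h 51 of 56 genotype differences were below 0, with a median of -0.55, 0 called without a block and 24 lower in Bach2-/- cells with it, where 10.7% of all genes were. At 0 h 2 of 56 were higher with the block, where 2.78% of all genes were. With it 4 of 56 responses were smaller in Bach2-/- cells, where 2.56% of all genes had a smaller one.

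Mitosis genes, which act after replication, are set beside the members for comparison. Of 33 listed 30 were tested, and their median log2 difference after 24 h was 0.34 in WT and 0.22 in Bach2-/- cells. Without a block 1 rose and 1 fell in WT cells, where 11.5% and 9.06% of all genes did. In Bach2-/- cells 0 rose and 0 fell, where 5.5% and 7.74% of all genes did. The median genotype difference was 0.89 at 0 h and 0.70 at 24 h, with 27 and 26 of 30 values above 0. At 0 h 0 of 30 passed without a block, 4 were higher with the replicate block (2.78% of all genes were) and 1 with the slide block. At 24 h 2 of 30 were higher without a block (2.15% of all genes), 11 were higher with the replicate block (7.98%), and 1 was lower with it. The replication genes had medians of 0.12 and -0.70, and no test of the difference between the lists was made. E2F-type letters were in 1 of 28 promoter windows of mitosis genes, and CCAAT in 22 of 28. The other pathway genes had E2F-type letters in 13 of 58 windows (22.4%), and the E2F and DP genes in 5 of 12 (41.7%). The replication genes had them in 14 of 43 (32.6%), so these letters were not particular to the replication genes. CCAAT was in 24 of 58 windows of the other pathway genes and 5 of 12 of the E2F and DP genes. Of 9 of 10 E2F and DP genes tested, 3 rose and 1 fell in WT cells and 0 rose and 1 fell in Bach2-/- cells, beside the same shares of all genes. Their median log2 differences were 0.60 and 0.44, and 0 passed for genotype at either time.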

How the data were processed

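Total RNA of splenic follicular B cells was labelled with Cy3 and hybridised to 1-colour Agilent arrays, 1 sample an array. Per the file headers and the submitters' processing notes, the authors quantified the scans in Agilent Feature Extraction, version 10.7.3.1. The software's processed signal, an intensity in the deposited files, was used here, with the flags for control, outlier, saturated and above-background spots. A table of the whole series, deposited by the authors, is on a log2 scale, as its values show; its centring is not stated in the sources used here. Set against the scanner signals, each array less its 75th percentile and each probe less its median, they gave r of 0.9993 to 0.9999. The order of the authors' steps stays unknown. Column medians of that table were -0.039, 0.16 and 0.014 (WT 0 h), -0.27, 0.11 and 0.011 (WT 24 h), -0.26, -0.097 and -0.031 (Bach2-/- 0 h) and -0.27, 0.49 and 0.071 (Bach2-/- 24 h).

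Outlier spots were left out, spots of a probe averaged, and signals divided by the array's 75th percentile over 55681 probes, floored at 0.01 and put on the log2 scale. Probes stayed in the analysis if 1 or more groups had them well above background on each of their 3 arrays (30735 probes), and a gene took its brightest probe. Of all probes 26413 were named through their RefSeq accession with a table of GRCm38.p6, and 29268 kept the file's name; the array annotation is on mm9 per the file headers, so positions printed come from the RefSeq table alone. Group means of all 12 arrays were fitted with limma 3.58.1 (R 4.3.3) and empirical Bayes variances, for 5 contrasts, with Benjamini-Hochberg adjustment over 22744 genes and a threshold of 0.05. The script was tested on simulated data. No member spot was saturated, and array numbers limit the precision: the smallest exact permutation p of 3 against 3 is 0.1. The labels number the replicates 1 to 3 in every group. Same-numbered arrays deviated together from their groups' means (r from 0.467 to 0.889, 18 pairs, each on 1 slide), as did 12 other pairs on 1 slide (0.247 to 0.642). The 24 pairs across slides had r from -0.814 to -0.417. Deviations from a group's mean cancel within the group, so these negative values follow from the positive ones and add no separate evidence. Blocked values are printed where they change a call.

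The 44 members, their roles, the other gene lists, the tests and the naming rule were chosen with earlier results of these data known. Every member may be named; array values are printed for members past a genotype or response-difference test (with or without the block, at most 10 each), the 3 highest and 3 lowest of each comparison, and Mcm3, Cdc6, Cdt1, Cdc45, Pcna, Pola1, Rpa2, Rrm2, Tyms and Tk1. Alternatives covered normalization, background correction, the authors' values, filters, probe choice, the groups fitted, blocks, slides and left-out arrays. The alternative background correction used the median signal, also an intensity in the deposited files, in place of the mean signal planned for it, with an offset of 50 intensity units. Motif search and figures used Python 3.11.15, pandas 2.3.3 and matplotlib 3.10.9.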

Additional observations from a re-analysis of the deposited data

Results flagged for a closer look

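The response of Tk1 was smaller in Bach2-/- than in WT cells by a log2 difference of -1.373, and that of Gins2 by -1.318. Both are listed because the test of the difference between the genotypes' responses passed with the replicate block (limma, adjusted p = 0.03203 for Tk1 and 0.04718 for Gins2). Neither passed without the block (adjusted p = 0.5574 and 0.885). With the slide as the block Tk1 passed and Gins2 did not (adjusted p = 0.0482 and 0.0809). Without both doubted arrays neither passed with the replicate block (log2 differences -1.02 and -1.01, adjusted p = 0.128 and 0.113), and 0 of the 44 genes passed in 7 of the 12 fits with the block and 1 array left out.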

How the results depend on the processing

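Counts are of the 44 genes past an adjusted p of 0.05. For most settings the share of all genes called is not given, so a shift in the members is not told from a shift over all genes. The genotype difference at 24 h gave 0 genes in the main analysis, 19 with the replicate block, 10 with the slide block and 1 on slide 1 alone, and 0 to 1 with any of the 12 arrays left out. In settings chosen after seeing the data, the replicate block gave 4 genes without both doubted arrays, 2 on slide 1 alone and 2 to 27 with 1 array left out: 2 without WT 24 h replicate 1 or 2, 5 without WT 24 h replicate 3, 6, 9 and 27 without Bach2-/- 24 h replicates 2, 1 and 3, 10, 13 and 11 without Bach2-/- 0 h replicates 1, 2 and 3, and 19, 24 and 10 without WT 0 h replicates 1, 2 and 3. The WT response gave 26 genes and 15 to 32 with 1 array left out (15 without WT 0 h replicate 3 or WT 24 h replicate 1). The Bach2-/- response gave 1 gene, 4 after quantile normalization, 0 when only probes above background on all 12 arrays were kept (which removes Orc1), 2 when a gene's probes were averaged, 0 with only the compared groups fitted, 20 with the replicate block, 16 with the slide block, 2 on slide 1 alone, 25 without both doubted arrays, and 0 to 15 with 1 array left out (15 without Bach2-/- 24 h replicate 2). With the replicate block, again chosen after seeing the data, it gave 33 without both doubted arrays, 5 on slide 1 alone and 8 to 34 with 1 array left out (23 without WT 0 h replicate 1, 34 without Bach2-/- 24 h replicate 2). The response difference gave 0, 2 with the replicate block, 1 with the slide block, and 0 to 15 when 1 array was left out with the block (15 without WT 0 h replicate 2). At 0 h the count was 0 in every planned setting and 0 to 3 when 1 array was left out with the block. Apart from the Orc1 case the causes were not tested. No called value changed sign in any setting. Uncalled values did, under other scaling and with arrays left out. Quantile normalization turned 5 WT responses, 1 Bach2-/- response, 2 response differences, and 1 and 5 genotype differences at 24 h and 0 h. Normexp background correction turned 2 and 3 genotype differences at 24 h and 0 h. With both doubted arrays left out and no block, 14 of 44 response differences were above 0 (0 in the main analysis). So were 5 genotype differences at 24 h (1 in the main analysis). Without Bach2-/- 0 h replicate 1 and no block, 29 genotype differences at 0 h were below 0 (16 in the main analysis). With 3 arrays a group, 1 array can decide a count, and spots near background limit Orc1.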
